A study of Mus musculus with 3 samples.

Results

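The genes described here carry calcium, phosphate and magnesium back from the urine or belong to the vitamin D and Klotho systems that control that transport. They are Kl, Vdr, Cyp24a1, Cyp27b1, Trpv5, Trpm6, Calb1, S100g, Slc34a1 and Slc34a3, and every probe set whose platform annotation gives 1 of these symbols and no other was taken. Of the 10 genes, 9 had such a probe set, giving 16 probe sets of the 45037 on the array that are not Affymetrix controls. Trpv5, the apical calcium channel of the distal tubule, had none and was not analysed here. All 16 probe sets passed the filter on low values and were tested.

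The kidneys came from 3 C57BL/6 mice, each measured on 1 single-colour Affymetrix array. Of these, 2 mice had received acetate, the shortest of the common short-chain fatty acids, as a 200 mM solution to drink, which began at 3 weeks of age and lasted 6 weeks, and 1 mouse served as the control. The labels name neither the acetate salt nor what the control mouse drank. The question is how kidney expression differs after oral acetate. Values are deposited log2 expression values, on which a difference of 1 is a 2-fold change, and acetate-fed means are given ± SD (n = 2), while the single control has no error of its own.

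The kidney sets the body's calcium and phosphate balance mostly after filtration. In the proximal tubule sodium-phosphate cotransporters recover phosphate, and the same cells activate vitamin D with Cyp27b1 and destroy it with Cyp24a1. Parathyroid hormone and FGF23, which needs Klotho as a co-receptor, both lower phosphate recovery. Parathyroid hormone raises Cyp27b1, FGF23 lowers it and raises Cyp24a1, and active vitamin D, acting through Vdr, also raises Cyp24a1. In the distal convoluted and connecting tubules calcium enters through Trpv5, crosses the cell bound to calbindins and leaves through a sodium-calcium exchanger and a calcium pump, while magnesium enters through Trpm6.

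All 3 arrays carried the RNA of kidney. Umod, the uromodulin of the thick ascending limb, had 13.67 and 13.64 in acetate-fed mice 1 and 2 and 13.53 in the control. Xist was between 11.80 and 12.03 at its brightest probe set, and 9 probe sets of 3 Y-linked genes stayed at or below 3.45 on every array. The marker RNA of several cell types and of tubular injury was not equal between arrays. Each of 11 macrophage markers exceeded the control in both acetate-fed kidneys, with summed linear values of 9353 and 5077 in acetate-fed mice 1 and 2 and 2557 in the control. All 6 tested adipocyte markers, of 9 listed, were lower in both, with sums of 1136 and 1210 in the acetate-fed kidneys and 6856 in the control. Adig had 3.96 and 3.91 in acetate-fed mice 1 and 2 and 6.99 in the control, and Cidec 3.32, 3.12 and 6.49. In the same order Adipoq had 4.38, 3.87 and 9.98, with an acetate-fed mean of 4.12, below the filter's minimum of 4.21. Adig, Cidec and Adipoq passed the filter on low values only through the control, so the filter set their direction. The adipocyte sums include them. All 10 fibroblast and matrix markers (sums 10926 and 4808, against 3469 in the control) and 7 of 9 tubular injury markers (12377 and 8712, against 5547) were higher in both. Adrenal markers stayed low, with the 2 tested genes at the same value on all 3 arrays. The part of these differences in the results below was not tested, and in tissue RNA fewer cells of a type cannot be told apart from less RNA per cell.

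No probe set of the mineral-handling genes passed limma's test of acetate against control, which called 10.5% of all 27022 tested probe sets at a Benjamini-Hochberg adjusted p under 0.05. At an unadjusted p under 0.05 the count among the 16 was also 0, where 20.0% of all tested probe sets passed. None differed 1.5-fold or more, and the same way, on both acetate-fed arrays, where the share over all tested probe sets was 1.67% for higher and 1.23% for lower. By any amount, 6 of the 16 were higher than the control in both mice (26.9% of all tested probe sets) and 3 were lower in both (27.5%). Opposite ways in the 2 mice went 5 (9.0%), and 2 equalled the control on 1 array. Of all 27022 tested probe sets, 9893 equalled the control in at least 1 acetate-fed mouse, which lowers the other shares. Taken alone, mouse 2 was at least 1.5-fold above the control at 6 of the 16, where 2.46% of all tested probe sets were. None was as far below it. Mouse 1 was so at 0, where 3.85% were. The 6 belong to only Cyp24a1, Calb1 and Trpm6, and probe sets of the same gene are not separate evidence. At each gene's probe set with the highest mean, only Cyp24a1 and Trpm6 passed this limit in mouse 2. The median difference from the control was -0.08 in mouse 1 and 0.43 in mouse 2, against 0 in each mouse over all tested probe sets. The limma fit has 1 residual degree of freedom, and 92.3% of its calls are probe sets whose acetate-fed values are exactly equal, which is true of 0 of the 16. With such tied pairs left out of the fit, 4 of the 16 passed as higher (25.0%), against 11.5% of 17923 probe sets in either direction. These 4 are both probe sets of Cyp24a1, 1 of Trpm6 and the dimmest of Calb1. Counted by gene at the probe set with the highest mean, 2 of 9 passed in that fit, against 12.7% of 9451 genes. In that fit the spread is mostly borrowed across the array, with 26.5 prior degrees of freedom.

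**Figure D1:**
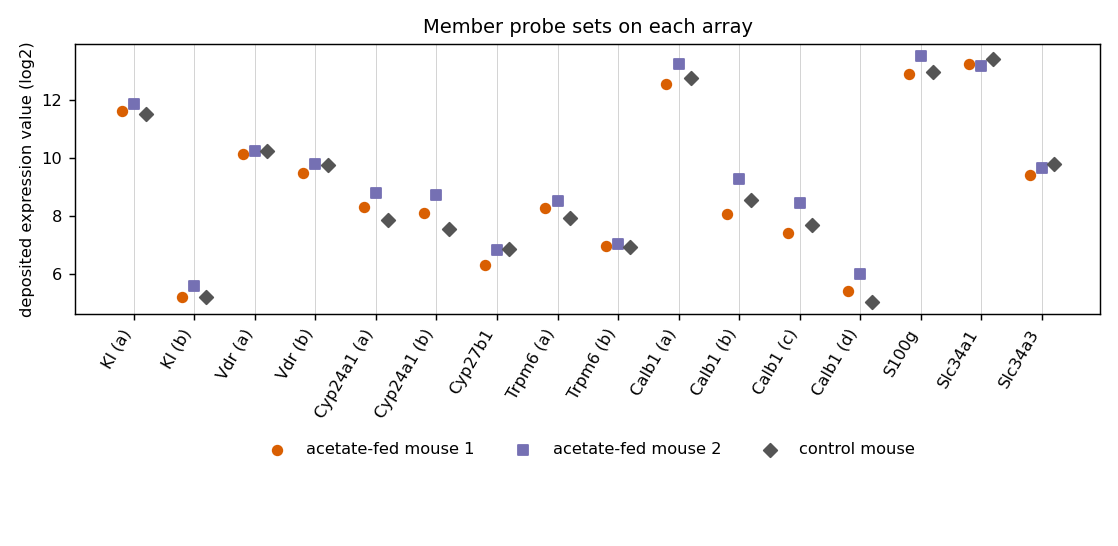
Deposited log2 value of each of the 16 probe sets on the arrays of acetate-fed mouse 1, acetate-fed mouse 2 and the control mouse. Letters after a symbol order a gene's probe sets from the highest mean down. The Cyp24a1 points of both acetate-fed kidneys lie above the control, and those of Slc34a1 below it.

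Cyp24a1, the enzyme that inactivates vitamin D and a textbook target of Vdr, had the largest mean differences among the members. Its first probe set (a in the plots) had 8.32 in acetate-fed mouse 1 and 8.80 in acetate-fed mouse 2, against 7.87 in the control. The second (b) had 8.10 and 8.73 in the acetate-fed kidneys, against 7.56 in the control. Both acetate-fed kidneys were above the control at both probe sets, mouse 2 more so than mouse 1. The folds over control were 1.36 and 1.91 at the first and 1.45 and 2.25 at the second. The mean acetate-fed value was 8.56 ± 0.34 at the first and 8.42 ± 0.45 at the second, so the mean differences of 0.69 and 0.85 were larger than the SD of the acetate-fed pair. A mean difference at least as large occurred at 3.28% and 1.99% of all tested probe sets. Limma's adjusted p was 0.65 and 0.67, with tied pairs left out 0.0029 and 0.00093, and under the other normalizations and filters between 0.32 and 0.81. The 2 probe sets interrogate the same gene and are not separate evidence.

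Cyp27b1, which makes the active hormone calcitriol, was lower than the control in both acetate-fed kidneys by unequal amounts. Its probe set had 6.33 in acetate-fed mouse 1 and 6.84 in acetate-fed mouse 2, against 6.87 in the control. Mouse 1 was 1.46-fold lower, and mouse 2 was 1.02-fold lower. The mean difference of -0.29 was smaller than the SD of the acetate-fed pair, 0.36 (limma adjusted p = 0.87). Cyp24a1 was thus farthest from the control in mouse 2, and Cyp27b1 in mouse 1.

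Vdr, the nuclear receptor of calcitriol, differed little. The brighter probe set had 10.13 and 10.24 in acetate-fed mice 1 and 2, and its value in the control, 10.24, was exactly that of mouse 2. The other had 9.47 and 9.80 in the acetate-fed kidneys, against 9.77 in the control. The largest departure was thus in mouse 1, at 1.22-fold lower, and limma's adjusted p was 0.87 and 0.93.

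Kl encodes Klotho, the co-receptor through which FGF23 acts on the tubule. Its brighter probe set had 11.61 in acetate-fed mouse 1 and 11.88 in acetate-fed mouse 2, against 11.51 in the control. The folds over control were 1.07 and 1.29, and the mean difference of 0.23 compares with an SD of 0.19 in the acetate-fed pair (limma adjusted p = 0.86). The dimmer probe set had 5.22 and 5.60 in the acetate-fed kidneys, and the control value of 5.22 was exactly that of mouse 1. No value of Kl in an acetate-fed kidney was below the control.

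**Figure D2:**
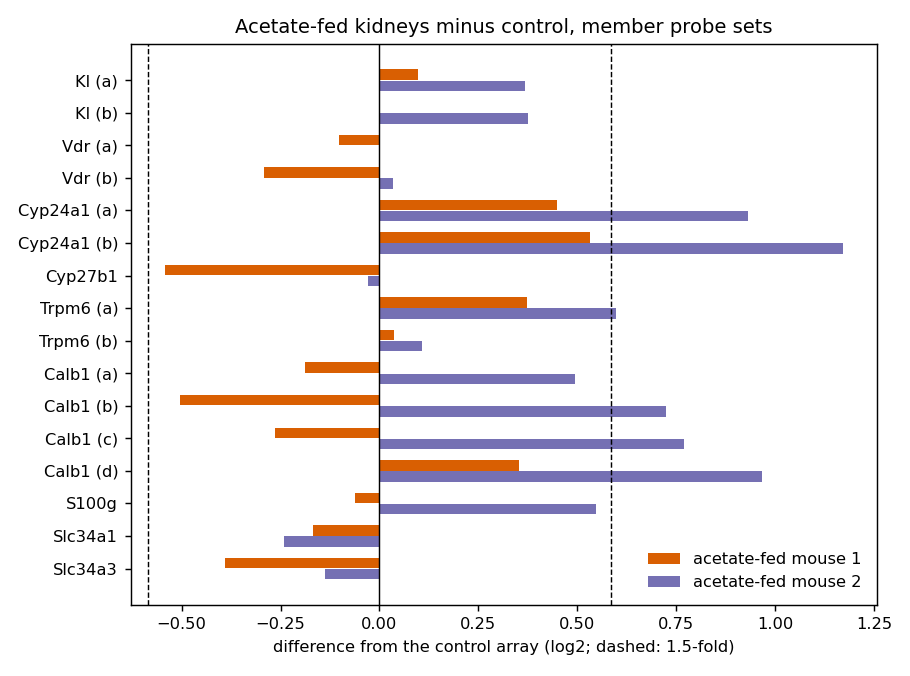
Difference of each acetate-fed kidney from the control (log2) for the 16 probe sets, with dashed lines at 1.5-fold in either direction. In mouse 2, 6 bars pass the upper line (Cyp24a1 a and b, Trpm6 a, Calb1 b, c and d), and in mouse 1 none passes either line.

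The magnesium channel gene Trpm6 was higher in both acetate-fed kidneys. Its brighter probe set had 8.30 in acetate-fed mouse 1 and 8.52 in acetate-fed mouse 2, against 7.93 in the control. The folds over control were 1.29 and 1.51, and the mean difference of 0.49 was larger than the SD of the pair, 0.16. Limma's adjusted p was 0.49, with tied pairs left out 0.020, and under the other settings between 0.24 and 0.59. The other probe set had 6.96 and 7.03 in the acetate-fed kidneys, against 6.92 in the control, a mean difference of 0.07. The 2 probe sets point the same way and differ in size. A mean difference at least as large occurred at 6.92% of all tested probe sets for the brighter and 49.6% for the other.

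For the calbindins, which buffer calcium as it crosses the cell, the 2 acetate-fed kidneys were farther from each other than either was from the control at S100g and at 3 of the 4 probe sets of Calb1. At the brightest probe set of Calb1, calbindin-D28k, values were 12.56 in acetate-fed mouse 1 and 13.24 in acetate-fed mouse 2, against 12.75 in the control. At the second (b) they were 8.07 and 9.30 in the acetate-fed kidneys, against 8.57 in the control. At the third (c) they were 7.42 and 8.46, against 7.69 in the control. At all 3 the control lay between the acetate-fed kidneys, with mouse 1 below it and mouse 2 above it. The dimmest probe set (d) had 5.41 and 6.02 in the acetate-fed kidneys, against 5.06 in the control, so there both were above, and mouse 2 was farther from the control, by 0.97, than from mouse 1, by 0.61. Its limma adjusted p was 0.76, with tied pairs left out 0.020 and under the other settings between 0.42 and 0.92, whereas the brighter 3 had adjusted p of 0.65 or more in either fit.

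S100g, calbindin-D9k, is a smaller calcium buffer of another protein family. It had 12.91 in acetate-fed mouse 1 and 13.51 in acetate-fed mouse 2, against 12.97 in the control. Mouse 1 was 1.04-fold lower than the control and mouse 2 was 1.46-fold higher. The mean of 13.21 ± 0.43 differed from the control by less than the SD of the pair (difference 0.24, limma adjusted p = 0.93).

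The gap between the 2 acetate-fed kidneys was wide for Calb1, S100g, Cyp24a1 and Cyp27b1 when set against the rest of the array. It was not wide for every member. Mouse 2 was above mouse 1 by 1.23 at Calb1 b, a 2.34-fold gap. Of 27022 tested probe sets 6, itself included, were higher in mouse 2 by that much. In either direction, 0.24% of tested probe sets had a gap at least as large. The gap was 1.03 at Calb1 c, 0.68 at Calb1 a, 0.61 at Calb1 d and 0.61 at S100g. The median absolute gap over all tested probe sets was 0.05, with 33.7% of them exactly equal in the acetate-fed pair. At Cyp24a1 mouse 2 exceeded mouse 1 by 0.48 and 0.64, and at Cyp27b1 by 0.51. Gaps as large as those of Trpm6 b, Slc34a1 and Vdr a occurred, in either direction, at 41.3%, 40.8% and 33.2% of tested probe sets. By gene, the median absolute gap was 0.27 for the members. It was 0.82 for macrophage markers, 0.81 for tubular injury markers and 1.15 for fibroblast and matrix markers. Of the 16 probe sets 15 were higher in mouse 2 than in mouse 1, the exception being Slc34a1. Over all tested probe sets with unequal acetate-fed values, 53.8% were higher in mouse 2. Counted by gene, 8 of 9 were higher in mouse 2, where the share over all tested genes with unequal values was 55.4%. Both acetate-fed kidneys carry the same label, so this gap is a spread within the group.

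**Figure D3:**
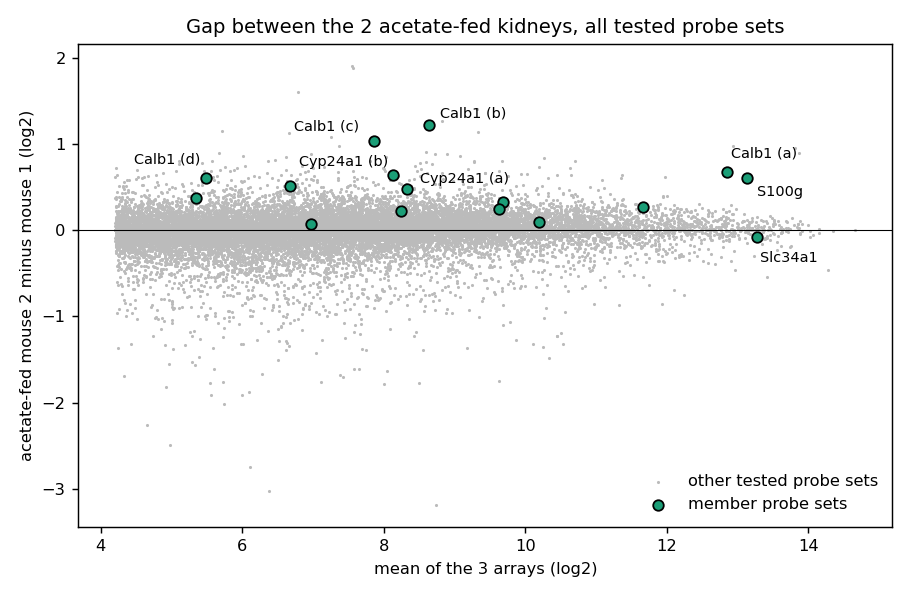
Acetate-fed mouse 2 minus acetate-fed mouse 1 (log2) against the mean of the 3 arrays (log2) for all 27022 tested probe sets, with the 16 mineral-handling probe sets in green. The green points lie above 0 except Slc34a1, and Calb1 b at 1.23 is near the upper edge of the cloud.

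Other markers of the distal convoluted and connecting tubules did not share 1 direction against the control. Of 12 tested markers of these segments that are not members, 5 were higher than the control in both acetate-fed kidneys (26.0% of all tested genes). Lower in both was 1 (30.9%), 5 went opposite ways (10.3%) and 1 was equal on all 3 arrays. Of all 13473 tested genes, 4423 equalled the control in at least 1 acetate-fed mouse. Between the acetate-fed kidneys, 10 of the 12 were higher in mouse 2 than in mouse 1, with the gene equal on all 3 arrays kept in the 12. The share was 38.9% over all tested genes and 55.4% over those with unequal values. The medians of the 12 against the control were -0.01 in mouse 1 and 0.25 in mouse 2. Their summed linear values were 17331 and 20250 in acetate-fed mice 1 and 2 and 15356 in the control. Pvalb, the calcium-binding parvalbumin of the distal convoluted tubule, was the marker lower in both, with 9.53 and 9.76 in the acetate-fed kidneys, against 10.11 in the control (limma adjusted p = 0.51, with tied pairs left out 0.016). Slc8a1, the basolateral sodium-calcium exchanger that completes the calcium route, was singled out after its values were seen. Its brightest probe set had 9.40 and 10.09 in the acetate-fed kidneys, against 9.39 in the control, and the gaps between mouse 2 and mouse 1 at its 3 tested probe sets were 0.69, 0.77 and 0.65. Scnn1b, a sodium channel subunit named for the same reason, had 8.15 and 8.90 in the acetate-fed kidneys, against 8.27 in the control. The thiazide-sensitive cotransporter Slc12a3, also named after its values were seen, had 11.79 and 12.07 in the acetate-fed kidneys, against 11.57 in the control. Slc8a1, Scnn1b and Slc12a3 were picked by value and support no statement on the list. Sgk1, a kinase induced by mineralocorticoids and glucocorticoids, did not follow that order, with 11.74 and 11.71 in the acetate-fed kidneys, against 11.04 in the control (limma adjusted p = 0.071, with tied pairs left out 0.00012, under the other settings 0.066 to 0.24).

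**Figure D4:**
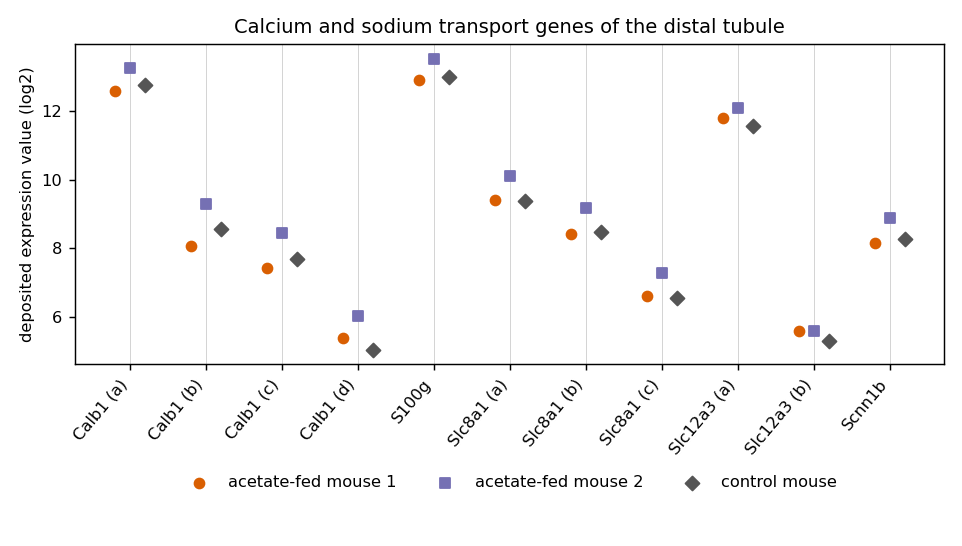
Deposited log2 values on the 3 arrays for every tested probe set of Calb1, S100g, Slc8a1, Slc12a3 and Scnn1b, genes of the distal tubule, with letters ordering a gene's probe sets by mean. Acetate-fed mouse 2 is the highest point at each probe set except Slc12a3 b, where the acetate-fed kidneys are equal at 5.60. Slc8a1, Slc12a3 and Scnn1b were picked after their values were seen. Among listed markers not shown, Pvalb was highest in the control and Sgk1 in acetate-fed mouse 1.

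The phosphate cotransporters of the proximal tubule were slightly lower. Slc34a1, which carries most proximal phosphate reabsorption in the mouse, had 13.24 in acetate-fed mouse 1 and 13.17 in acetate-fed mouse 2, against 13.41 in the control. Both were below the control, by 1.12-fold and 1.18-fold, and the mean difference of -0.20 was larger than the SD of the pair, 0.05 (limma adjusted p = 0.41, with tied pairs left out 0.31, under the other settings 0.29 to 0.49). Slc34a3, the second brush-border cotransporter, had 9.42 and 9.67 in the acetate-fed kidneys, against 9.81 in the control. The mean difference was -0.26 and the SD of the pair 0.18 (limma adjusted p = 0.77). A mean difference at least as large, in either direction, occurred at 24.5% of all tested probe sets for Slc34a1 and 18.1% for Slc34a3. Proximal tubule markers as a list were also lower in both mice at 12 of 16 genes, where 30.9% of all tested genes were. Their median differences were -0.33 for mouse 1 and -0.27 for mouse 2, with summed linear values of 78557 and 74454, against 92838 in the control. At least 1.5-fold lower in both mice were 4 of the 16, where 216 of all 13473 tested genes were. These were the organic anion and urate transporter genes Slc22a6, Slc22a8 and Slc22a12 and the dicarboxylate transporter gene Slc13a3.

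Promoter sequence is shown for 3 members whose patterns differ: S100g, with a wide gap between the acetate-fed kidneys, Trpm6, higher in both, and Slc34a1, lower in both. The windows are those of RefSeq on GRCm38.p6 and run from 250 bases before to 50 after the start of the gene. They were available for 8 of the 10 members. Cyp24a1 and Calb1 had no window, so their promoters were not searched. Capitals mark the vitamin D receptor half-site AGGTCA and its variants AGTTCA or GGGTCA or GGTTCA, searched on both strands, so a site on the other strand appears as its reverse complement.
S100g promoter, chrX:162964550-162964849, minus strand: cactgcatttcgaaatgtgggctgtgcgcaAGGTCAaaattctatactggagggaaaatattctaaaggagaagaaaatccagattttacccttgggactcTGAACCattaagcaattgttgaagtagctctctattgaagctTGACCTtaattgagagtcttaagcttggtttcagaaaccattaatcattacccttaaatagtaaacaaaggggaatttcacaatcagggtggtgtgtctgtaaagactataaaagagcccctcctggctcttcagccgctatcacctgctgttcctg
Trpm6 promoter, chr19:18749480-18749779, plus strand: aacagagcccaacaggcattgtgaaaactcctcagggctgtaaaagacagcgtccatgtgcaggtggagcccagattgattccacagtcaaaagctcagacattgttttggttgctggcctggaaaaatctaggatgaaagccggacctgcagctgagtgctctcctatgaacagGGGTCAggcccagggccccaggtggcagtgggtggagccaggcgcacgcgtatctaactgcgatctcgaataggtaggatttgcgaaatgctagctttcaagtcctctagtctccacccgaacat
Slc34a1 promoter, chr13:55399398-55399697, plus strand: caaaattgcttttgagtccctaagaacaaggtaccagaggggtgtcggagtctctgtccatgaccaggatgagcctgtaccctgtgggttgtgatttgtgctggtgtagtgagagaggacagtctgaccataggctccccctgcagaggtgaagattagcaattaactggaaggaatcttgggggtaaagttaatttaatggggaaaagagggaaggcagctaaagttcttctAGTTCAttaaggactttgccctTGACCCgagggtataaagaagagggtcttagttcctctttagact
S100g held 3 half-sites, with first bases 220, 149 and 107 bases upstream of the start, Trpm6 held 1 and Slc34a1 held 2. Of the 8 member windows 7 held at least 1, compared with 43.7% of all 32851 windows of that length, and any 2 of these half-sites in direct repeat with 3 bases between them occurred in none of the 8 and in 0.04% of all windows. A match of 6 letters is a description of the sequence and shows no binding.

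Around the members, 5 lists of related genes held 66 tested genes, of which 2, Pth1r and Cldn14, were at least 1.5-fold from the control in both mice (3.03%, against 3.35% of all 13473 tested genes). Of 10 tested genes of vitamin D supply and signalling, 0 were higher in both mice and 5 lower, and of 9 genes of parathyroid hormone, FGF23 and calcium sensing 0 were higher and 6 lower. Of 20 genes of calcium transport 12 were higher in both and 3 lower. Of 12 phosphate transport genes 2 were higher and 7 lower, and of 15 magnesium transport genes 2 were higher and 7 lower. Over all tested genes 26.0% were higher in both and 30.9% lower, while 4423 of the 13473 equalled the control in at least 1 mouse. Limma called 1 of the 66, where 8.89% of all tested genes were called. It was Fgfr1, an FGF23 receptor, which fell by 0.06 on the log2 scale (adjusted p = 0.043). Its acetate-fed values were exactly tied at 7.03, against 7.09 in the control. With tied pairs left out, 10 of the 59 genes of these lists in that fit passed, 4 higher and 6 lower (16.9%, against 12.7% of 9451 genes).

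Pth1r, the receptor of parathyroid hormone, had the largest difference in its list. It had 11.48 in acetate-fed mouse 1 and 11.34 in acetate-fed mouse 2, against 12.26 in the control. Both were below the control, by 1.71-fold and 1.89-fold, and the mean difference of -0.84 was larger than the SD of the pair, 0.10. Limma's adjusted p was 0.22, with tied pairs left out 8e-06, and under the other settings between 0.11 and 0.25. Pth1r is expressed in the proximal tubule among other segments, and the part of the lower proximal markers in its difference was not tested.

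Cldn14, a claudin that restrains calcium passage in the thick ascending limb downstream of the calcium-sensing receptor, was the only calcium transport gene at least 1.5-fold from the control in both mice. It had 5.68 and 5.77 in the acetate-fed kidneys, against 5.03 in the control (limma adjusted p = 0.18, with tied pairs left out 0.0036, under the other settings 0.11 to 0.25). The control value is close to the median of 4.91 over all probe sets of that array, and no detection calls were used. Casr, the calcium-sensing receptor itself, was named after its values were seen and had 7.12 and 7.23 in the acetate-fed kidneys, against 7.24 in the control. Trpv6, a channel closely related to the missing Trpv5 and also named after its values were seen, had 5.80 and 5.58 in the acetate-fed kidneys, against 5.45 in the control (limma adjusted p = 0.75).

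**Figure D5:**
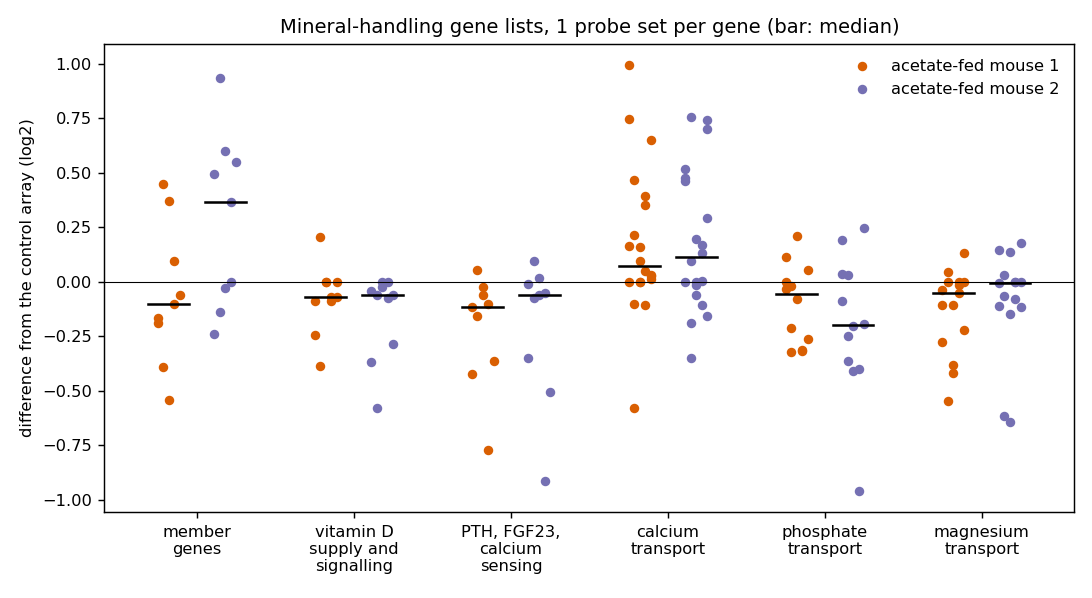
Difference of each acetate-fed kidney from the control (log2) for the member genes and for 5 lists of related genes, 1 probe set per gene, with black bars at the medians. The member genes have medians of -0.10 in mouse 1 and 0.37 in mouse 2, and the other medians lie between -0.20 and 0.11.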

How the data were processed

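Total RNA from kidney was biotin-labelled and hybridised to 1 array per mouse, and groups follow the agent and title in the labels (2 acetate-fed, 1 control). The authors deposited a table of log2 expression values for 45101 probe sets. Per the submitters' processing notes MAS5 was among the tools; how these values were summarised and which version was run is not given in the sources used here. The deposited medians were 4.94, 4.93 and 4.91 for acetate-fed mice 1 and 2 and the control. No detection calls were used, and precision is limited by the number of arrays. Of the tested probe sets 33.7% had exactly equal acetate-fed values.

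Values were used as deposited. Symbols came from the platform annotation (34945 with 1 symbol, 932 with several, 9160 not listed), updated by Entrez identifier in the RefSeq table (34741 matched, 0 symbols changed). The 64 Affymetrix controls were left out, and the upper 60% by mean over the 3 arrays (at least 4.21) were tested with limma 3.58.1 in R 4.3.3, with an intensity trend and Benjamini-Hochberg adjustment over 27022 probe sets at 0.05. The fit assumes that the control varies as much as the acetate-fed pair, and p-values rest on 3 animals. Related genes are represented by their tested probe set with the highest mean. The fit was also run on simulated data with continuous noise. Those data held no exactly tied pairs, so the run cannot show how the fit treats them. Named genes are all members, genes of the related lists that are at least 1.5-fold from the control in both mice or called by limma, and a few stated as picked by value. For lists of other cell types and injury the sums stand in place of names, apart from Adig, Cidec and Adipoq. Members and lists were chosen with earlier results of these data known. Alternatives were tied pairs left out, quantile normalization, median centring, no filter, the upper 40%, a 2-fold limit and leaving out each acetate-fed mouse. Tables were made with Python 3.11.15 and pandas 2.3.3, plots with matplotlib 3.10.9.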

Additional observations from a re-analysis of the deposited data

How the results depend on the processing

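No member probe set passed limma's test as fitted on all tested probe sets, or after quantile normalization, median centring, with no filter or in the upper 40%. With tied pairs left out 4 of the 16 did. The total of limma calls was 2846 and became 0 after quantile normalization, 0 after median centring and 0 in the upper 40% (4292, 4959 and 3513 at an unadjusted p under 0.05), and 6523 with no filter; the first 2 settings break exact ties by construction, and for the others the cause was not tested. The 1.5-fold rule in both mice held for 783 probe sets, and the 2-fold rule for 190. Judged from 1 acetate-fed mouse, the number ranged from 1210 (mouse 2 alone) to 1570 (mouse 1 alone). Among members it ranged from 0 (mouse 1 alone) to 6 (mouse 2 alone, all higher), where 2.46% of all tested probe sets were higher. The 6 are probe sets of only Cyp24a1, Calb1 and Trpm6. Leaving out 1 acetate-fed mouse moved the Calb1 differences between -0.19 (mouse 1 alone) and 0.49 (mouse 2 alone) at a, between -0.51 and 0.72 at b and between -0.27 and 0.77 at c. In the same order, S100g ranged from -0.061 to 0.55 and the second Vdr probe set from -0.29 to 0.033. No other member turned to the opposite direction under any of these settings. No paired analysis was possible because there is 1 control array and its number pairs it with no acetate-fed mouse. With 1 control kidney, every difference includes what was particular to it.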
